A study of Mus musculus with 32 samples.

Results

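The comparison described here set 4 cerebellar vermis libraries of ACSS2 knockout (KO) mice whose mothers had received ethanol during pregnancy against 4 vermis libraries of KO mice whose mothers had received saline. The members were chosen by their labels for genotype, region and prenatal exposure, and they are 8 of the 32 polyA RNA-seq libraries of the series, each from a different mouse. In the ethanol group (chronic prenatal alcohol exposure, cPAE) the dam was injected intraperitoneally once daily with ethanol at 3 g per kg, made up at 20% by volume in saline, starting after the first of her 5 nights with a stud and ending at birth. In the saline group (chronic prenatal saline exposure, cPSE) the dam was given the same volume of saline on the same schedule. All 8 mice were ACSS2 KO on the C57BL/6J strain, were weaned at postnatal day 21 and were killed between postnatal days 40 and 50, and each group held 2 females (F1 and F3) and 2 males (M1 and M3). The wild-type (WT) vermis libraries of the same strain, ages and exposures, 4 per group, shared the fit and served as a reference. The labels do not give the KO allele, the litter or cage of a mouse, or the time of day at death. The dams were dosed, so littermates would not be independent, and whether any mice were littermates is not known. The p-values of the vermis fit measure the spread between mice, pooled over all 16 vermis libraries, and say nothing about the spread between litters.

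ACSS2 is the enzyme that joins acetate to coenzyme A in the cytosol and nucleus, and ethanol is oxidised to acetate by way of acetaldehyde. The vermis is the midline strip of the cerebellum, where granule neurons drive Purkinje neurons, the only output cells of the cortex. Cells of the cerebellum also carry a circadian clock, in which BMAL1 and CLOCK activate the Per, Cry, Nr1d and Dbp genes and the products of several of these genes repress the activators. Glucocorticoid hormone, which follows a daily rhythm and rises in stress, acts through a nuclear receptor on a partly overlapping set of genes.

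The targeted gene was checked first. Acss2 (ENSMUSG00000027605, chromosome 2, first listed exon 155359868 to 155360204, forward strand, GRCm39 as for all gene positions here) was at 11.9, 20.4, 18.8 and 11 CPM in the ethanol KO libraries F1, F3, M1 and M3, where CPM is a count scaled to its library's total, with TMM scaling. It was at 17.4, 17.8, 19.6 and 17.1 CPM in the saline KO libraries and at 55.9 to 68.4 CPM in the 8 WT vermis libraries. All KO libraries thus lay below all WT libraries, and the 2 KO groups overlapped (log2 fold change -0.23, SE 0.159, adjusted p = 0.495).

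Total counts of the KO vermis libraries ran from 23085928 to 72115690, and the shallowest was ethanol F3, so 1 CPM stood for about 23.1 counts there and for up to about 72.1 elsewhere. Of the counts between 1 and 20, 87.4 to 89.1% were even numbers, so a sequenced fragment mostly added 2 counts, 1 for each mate of its read pair. Ethanol F1 stood apart from the saline libraries. In part so did M1, in the brainstem list, and M3, in the midbrain, Purkinje and granule neuron lists. The 41-gene list of brainstem and deep nuclear neurons, of which 36 genes were tested, averaged 2.89 log2 CPM in F1, against -1.78 in F3, 0.96 in M1, -0.41 in M3 and -1.27 to -0.36 in the saline libraries. The summed level of that list was 690.5 to 2832 CPM in the ethanol group and 606.9 to 1165 CPM in the saline group, and 1 of the 41 genes was at 0 counts in F1, against 21 in F3, 4 in M1, 17 in M3 and 12 to 18 in the saline libraries. Hoxc4 and Hoxb5, which mark the caudal hindbrain, had 174 and 268 counts in F1 and 65 and 88 in M1. Hoxc4 was at 0 in the other 6 libraries, and Hoxb5 had 0 to 20 counts there. In F1 the oligodendrocyte list was also highest (7.52 log2 CPM, against 5.97 to 6.47 in the other 7), and the Purkinje list was lowest (7.13, against 7.93 to 8.56). The defining cerebellar markers were well expressed in all 8 libraries: Pcp2, a Purkinje gene, was at 100.4 to 350.9 CPM, and Gabra6, a granule neuron gene, at 155 to 591.8 CPM, with F1 lowest in both. Ethanol M3 shared part of this pattern: Slc17a6, the glutamate transporter of brainstem and midbrain neurons, was at 282, 3.14, 38.9 and 266 CPM in ethanol F1, F3, M1 and M3 and at 1.16, 18, 129 and 25.8 CPM in the saline libraries. The midbrain and colliculus list (12 of 15 genes tested) was highest in M3 (2.62 log2 CPM) and F1 (2.54), against -0.73 to 1.95 in the saline libraries. Its summed level went the other way, at 113.7 to 140.8 CPM after ethanol and 142.3 to 174.6 CPM after saline, with F1 lowest. The higher mean log2 CPM thus came from the weakly expressed members of that list. The Purkinje and granule neuron lists were next lowest in M3 (7.93 and 7.70 log2 CPM). Leaving out F1 therefore does not remove every library with such levels. Results below are given with all libraries and, where it matters, without F1, without F3 or without both, and the calls without M3 are given with those of the other libraries. F1 and F3 are the only ethanol KO females, so the fit without both sets 2 ethanol males against 4 saline mice of both sexes. Its sex term is estimated from the other groups.

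**Figure D1:**
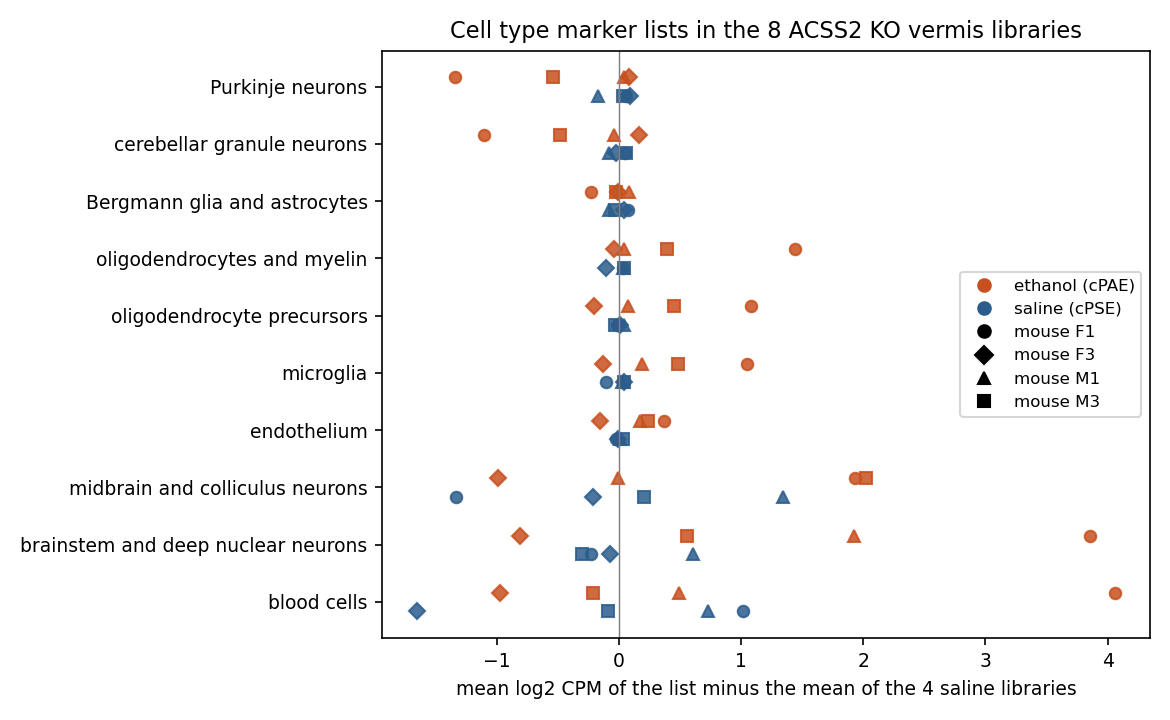
Mean log2 CPM of 10 cell type marker lists in each of the 8 ACSS2 KO vermis libraries, drawn as the difference from the mean of the 4 saline libraries. Orange marks stand for ethanol and blue marks for saline, with 1 shape per mouse label. Ethanol F1 lies far to the right for brainstem, blood and oligodendrocyte genes, with M1 next to it for brainstem genes. It lies far to the left for Purkinje and granule neuron genes, with M3 next to it there. Ethanol F3 lies with or on the other side of the saline libraries.

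Between ethanol and saline, 20 of 22441 genes tested passed in KO vermis (edgeR quasi-likelihood test, Benjamini-Hochberg threshold 0.05), which is 0.0891% of the genes. The 5 higher genes (0.0223%) were Kank1, Cldn5, Zfp36l2, Mmp14 and Xlr4b. The 15 lower genes (0.0668%) were Dbp, Ciart, Frmd6, Nr1d1, Per1, Map3k6, Mt2, Rasl11a, Klf2, Sgk1, Nfkbia, Slc7a5, Nr1d2, Ddit4 and Coq10b. Clock genes and genes that respond to glucocorticoids made up 10 of these 15. Their lists hold 20 tested genes each and share Per1. The lists were chosen with earlier results of these data known, so counts from them, here and below, are no independent support. All 20 called genes had ethanol and saline libraries that did not overlap, as had 1166 of all genes tested (5.2%). An unadjusted p under 0.05 was reached by 2993 genes. DESeq2 called 205 of 20265 (1.01%), of which 88 were higher (0.434%) and 117 lower (0.577%), and all 20 were among them.

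**Figure D2:**
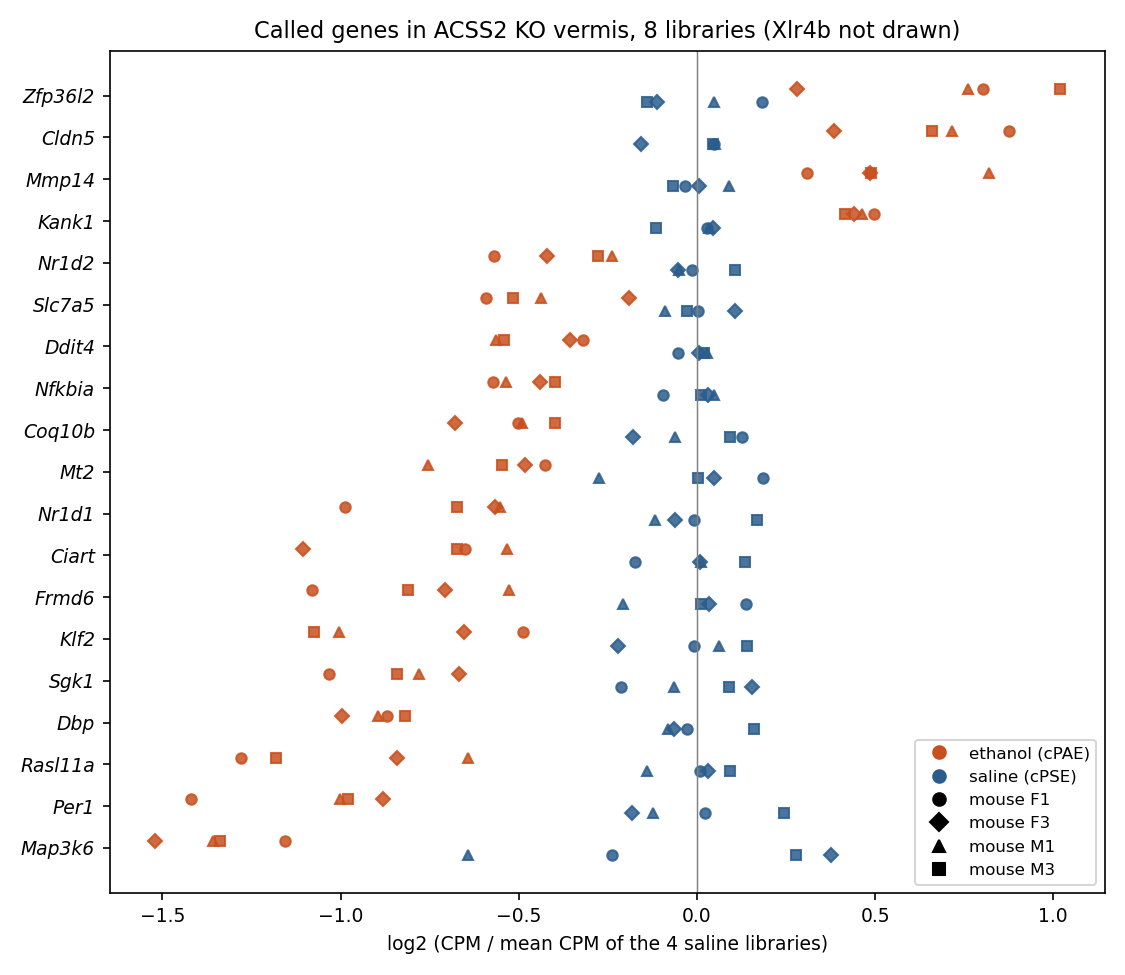
Level of each called gene in each ACSS2 KO vermis library, as log2 of its CPM over the mean CPM of the 4 saline libraries; Xlr4b, which had 1 to 8 counts in the saline libraries, is not drawn. Orange marks are the ethanol libraries and blue marks the saline ones, with 1 shape per mouse label. In each row the orange marks lie wholly to one side of the blue marks, and Kank1 and Dbp have the tightest ethanol groups.

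The genes of the circadian clock were lower after ethanol where they passed. Exposure and time of day at death, which the labels do not give, cannot be told apart for these or the glucocorticoid-responsive genes below. Of 20 clock genes tested, 5 fell and 0 rose, where 0.0668% of all genes fell and 0.0223% rose. A positive estimate was found for 6 of the 20, and the median log2 fold change was -0.21, against 0.0034 over all genes tested. The genes that fell were Dbp, Ciart, Nr1d1, Per1 and Nr1d2, which are repressors or output factors of the loop. The positive arm did not pass: Bmal1 was at 28 to 52.1 CPM after ethanol and 32.8 to 42.2 CPM after saline (log2 fold change 0.045, adjusted p = 0.906), and Clock at 112 to 146 and 121 to 128 CPM (0.01, adjusted p = 0.955).

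Dbp (ENSMUSG00000059824, chromosome 7, first listed exon 45354512 to 45355186, forward strand) encodes a transcription factor of the PAR bZIP family that carries the clock's rhythm to other genes. It was measured at 50.3, 46.1, 49.4 and 52.1 CPM in the ethanol libraries F1, F3, M1 and M3 and at 90.1, 87.9, 86.9 and 103 CPM in the saline ones. The highest ethanol library was thus far below the lowest saline one, in both sexes. Its means were 49.5 ± 2.5 CPM after ethanol and 91.9 ± 7.32 CPM after saline (SD, n = 4), a log2 fold change of -0.89 (SE 0.0615, adjusted p = 8.72e-06), the smallest p of all genes tested. Without F1 and F3 the value was -0.87 (adjusted p = 0.000484), and across the 27 other settings it ran from -0.93 to -0.84 and passed in 26. In males alone, 2 against 2, it was -0.91 and did not pass (adjusted p = 0.0892).

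Per1 (ENSMUSG00000020893, chromosome 11, first listed exon 68986043 to 68986129, forward strand), a repressor of BMAL1 and CLOCK that glucocorticoids also induce, was at 42.3, 61.4, 56.5 and 57.3 CPM after ethanol and at 115, 99.6, 104 and 134 CPM after saline. F1 was the lowest library, and the groups were separated without it too. The log2 fold change was -1.06 (SE 0.15, adjusted p = 0.0237), -0.93 without F1 (adjusted p = 0.0289) and -0.91 without F1 and F3, where it no longer passed (adjusted p = 0.0984).

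Ciart (ENSMUSG00000038550, chromosome 3, first listed exon 95785815 to 95786461, reverse strand), a repressor of the same activators, was at 8.18, 5.97, 8.88 and 8.06 CPM in the ethanol libraries. Its saline libraries held 11.4, 12.9, 12.9 and 14.1 CPM. The lowest value was that of the shallow library F3, and the call did not rest on it: the log2 fold change was -0.72 (SE 0.0965, adjusted p = 0.0164) with all libraries and -0.63 without F3 (adjusted p = 0.00438).

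Nr1d1 (ENSMUSG00000020889, chromosome 11, first listed exon 98658758 to 98659245, reverse strand) and Nr1d2 (ENSMUSG00000021775, chromosome 14, first listed exon 4230569 to 4230885, forward strand) encode the REV-ERB receptors, which repress Bmal1. Nr1d1 was at 68.4, 91.5, 92.3 and 84.9 CPM after ethanol and at 135, 129.9, 125 and 152 CPM after saline, a log2 fold change of -0.69 (SE 0.099, adjusted p = 0.0233). Nr1d2 was at 129.9, 144, 163 and 159 CPM after ethanol and 191, 186, 186 and 208 CPM after saline, a smaller fall of -0.37 (SE 0.0623, adjusted p = 0.0339). In both genes F1 was the lowest ethanol library. Nr1d1 passed without F1 and F3 (adjusted p = 0.0364), and Nr1d2 did not (adjusted p = 0.192).

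Other clock genes moved less or varied more. Per3 had 32.3 to 41.9 CPM after ethanol and 44 to 51.4 CPM after saline, groups that did not overlap, at a log2 fold change of -0.42 (adjusted p = 0.124). Cry2 had 99.5 to 113 and 117 to 123 CPM, again without overlap, at -0.15 (adjusted p = 0.293). Without F3, Per3 and Cry2 passed as well, which gave 7 lower clock genes of 20, where 1.45% of all genes passed as lower. Without F1 there were 4 lower clock genes (0.0393% of all genes passed as lower), and without both libraries 3 (0.051%): Dbp, Ciart and Nr1d1.

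Promoter windows of 3 of the lower genes are printed here because they hold the letters of motifs bound by clock factors or by the glucocorticoid receptor. Each is the 250 bases before a RefSeq transcription start (GRCm38.p6, 5′ to 3′ on the gene's own strand), with CACGTG, the E-box bound by BMAL1 and CLOCK, and the full 15-base palindrome of the glucocorticoid response element in capitals. Both strands were searched, and no 2 matches in these windows overlapped.
Ciart, chr3:95882229-95882478, reverse strand: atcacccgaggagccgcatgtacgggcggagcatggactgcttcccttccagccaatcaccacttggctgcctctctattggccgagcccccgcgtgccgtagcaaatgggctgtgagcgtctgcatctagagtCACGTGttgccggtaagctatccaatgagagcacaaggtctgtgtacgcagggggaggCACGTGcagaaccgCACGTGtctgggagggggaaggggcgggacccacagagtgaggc
Per1, chr11:69098699-69098948, forward strand: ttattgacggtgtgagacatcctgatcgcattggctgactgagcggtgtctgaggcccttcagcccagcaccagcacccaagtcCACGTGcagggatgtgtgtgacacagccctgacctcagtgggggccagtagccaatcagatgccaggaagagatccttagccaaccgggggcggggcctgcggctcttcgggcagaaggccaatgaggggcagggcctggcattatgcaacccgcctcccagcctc
Sgk1, chr10:21993640-21993889, forward strand: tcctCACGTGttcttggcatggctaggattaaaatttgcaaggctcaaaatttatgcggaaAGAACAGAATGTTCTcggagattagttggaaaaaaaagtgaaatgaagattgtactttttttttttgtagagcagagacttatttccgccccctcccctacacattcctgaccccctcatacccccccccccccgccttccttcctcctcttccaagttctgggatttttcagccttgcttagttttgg
In the Ciart window the 3 E-boxes begin 116, 58 and 44 bases before the start, and the single E-box of Per1 begins 166 bases before it. In the Sgk1 window, which belongs to 1 of 6 RefSeq starts of that gene, an E-box begins 246 bases and the response element 189 bases before the start. RefSeq starts were matched for 18 of the 20 called genes. An E-box was found for 5 of the 14 matched lower genes (Ciart, Per1, Sgk1, Frmd6 and Coq10b) and for 0 of the 4 matched higher genes, against 6.86% of 27025 genes. The D-box TTANGTAA, bound by DBP, was found for 1 of the 14 (Coq10b), against 2.44% of genes, and the full response element for 1 (Sgk1), against 0.0111%. A match is a description of these letters and no site of binding, and the windows of Dbp, Nr1d1 and Nr1d2 held none of the 3 motifs.

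Some of the genes that respond to glucocorticoids were also lower after ethanol. Of 20 tested, 6 fell and 0 rose, where 0.0668% of all genes fell: Per1, described above, Map3k6, Mt2, Sgk1, Nfkbia and Ddit4. The median log2 fold change was -0.36, with 5 positive estimates. Fkbp5, a well-known target of the receptor that limits its activity, was at 14.8, 6.93, 6.49 and 17.2 CPM after ethanol and 7.91, 13.1, 12.6 and 10.8 CPM after saline (0.047, adjusted p = 0.949), and its groups overlapped, with F1 and M3 high and F3 and M1 low.

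Sgk1 (ENSMUSG00000019970, chromosome 10, first listed exon 21758083 to 21758606, forward strand), a kinase that serum and glucocorticoids induce, was at 31.3, 40.4, 37.3 and 35.8 CPM after ethanol and at 55.4, 71.5, 61.4 and 68.3 CPM after saline. All 4 ethanol libraries were below all saline ones, at a log2 fold change of -0.83 (SE 0.132, adjusted p = 0.0338). Without F1 it was -0.73 and missed the threshold (adjusted p = 0.0652).

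Mt2 (ENSMUSG00000031762, chromosome 8, first listed exon 94899292 to 94899503, forward strand) encodes a metallothionein, a small protein that binds zinc and copper. It was at 89.7, 86.3, 71.4 and 82.5 CPM after ethanol and at 137, 125, 99.6 and 121 CPM after saline, so that the lowest saline library, M1, was still above the highest ethanol one. The log2 fold change was -0.55 (SE 0.0863, adjusted p = 0.0338). Mt1, its neighbour in the metallothionein cluster, was at 130.4 to 155 and 142 to 178 CPM and did not pass (-0.22, adjusted p = 0.334).

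Map3k6 (ENSMUSG00000028862, chromosome 4, first listed exon 132968129 to 132968742, forward strand), a stress-activated kinase of the ASK family, was the lowest expressed of the named genes, at 1.01, 0.785, 0.878 and 0.89 CPM after ethanol and 1.91, 2.92, 1.44 and 2.73 CPM after saline. Its log2 fold change of -1.32 (SE 0.203, adjusted p = 0.0306) was the largest fall among the called genes. In ethanol F3 it was below 1 CPM, which stands for fewer than 23.1 counts in that library.

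Nfkbia (ENSMUSG00000021025, chromosome 12, first listed exon 55536195 to 55536754, reverse strand), the inhibitor that holds NF-kappaB in the cytosol, was at 17, 18.7, 17.5 and 19.2 CPM after ethanol and 23.7, 25.9, 26.2 and 25.5 CPM after saline (-0.48, SE 0.0805, adjusted p = 0.0339). Ddit4 (ENSMUSG00000020108, chromosome 10, first listed exon 59785491 to 59786851, reverse strand), an inhibitor of mTORC1, was at 40.5, 39.5, 34.2 and 34.8 CPM and 48.7, 50.7, 51.6 and 51.2 CPM (-0.45, SE 0.0749, adjusted p = 0.0339). The falls were even across the 4 ethanol mice in both genes. Neither passed without F1 (adjusted p = 0.0834 and 0.0503).

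Hif3a and Klf9 of the same list had groups that did not overlap and did not pass. Hif3a, a hypoxia-inducible factor subunit, had 0.78 to 3.15 CPM after ethanol and 4.74 to 9.74 CPM after saline (-1.50, adjusted p = 0.164). Klf9 had 179.8 to 249 and 258 to 296 CPM (-0.33, adjusted p = 0.182), and it passed without F3 (adjusted p = 0.0266). The list had 9 lower genes without F3 (1.45% of all genes fell), 3 without F1 (Per1, Map3k6 and Mt2; 0.0393%) and 0 without both (0.051%).

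**Figure D3:**
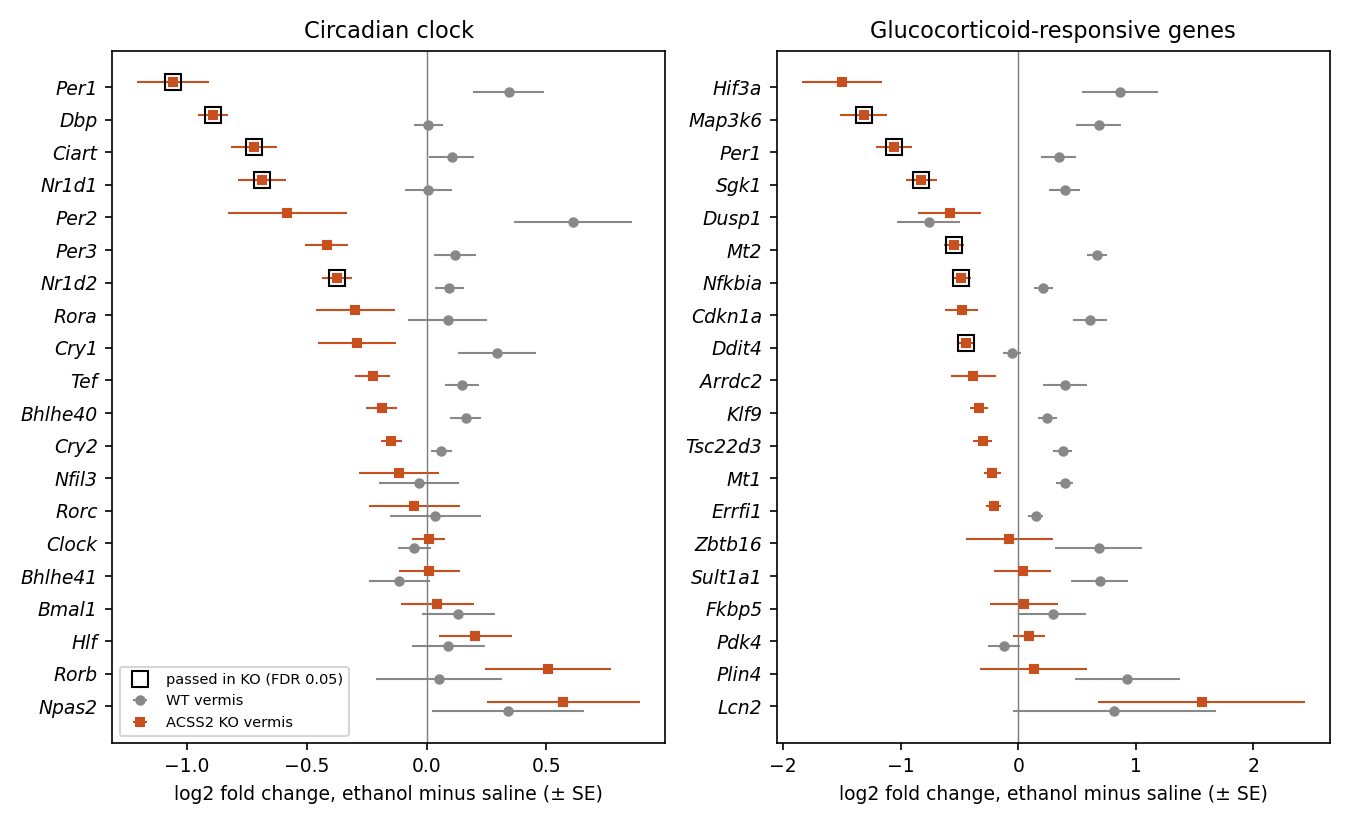
Log2 fold change of ethanol against saline with its standard error for each tested gene of the circadian clock list (left) and of the glucocorticoid-responsive list (right), in ACSS2 KO vermis (orange squares, 4 against 4 mice) and in WT vermis (grey circles, 4 against 4 mice); outlined squares passed in KO. The outlined genes lie left of 0 in KO, and the grey circles of the same genes lie near or right of 0.

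Frmd6 led the other genes that fell. Frmd6 (ENSMUSG00000048285, chromosome 12, first listed exon 70872288 to 70872347, forward strand) encodes a FERM-domain protein that acts upstream of the Hippo pathway. It was at 18.9, 24.5, 27.7 and 22.7 CPM in the ethanol libraries F1, F3, M1 and M3 and at 43.9, 40.9, 34.6 and 40.2 CPM in the saline ones. Every ethanol library was below every saline one, and M1 was the label at which the groups came nearest. The log2 fold change was -0.77 (SE 0.109, adjusted p = 0.0233), and without F1 and F3 it was -0.60 and just missed the threshold (adjusted p = 0.0528).

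Slc7a5 (ENSMUSG00000040010, chromosome 8, first listed exon 122607889 to 122609834, reverse strand), the transporter subunit that carries large neutral amino acids across the blood-brain barrier, was at 70.5, 93.1, 78.5 and 74.2 CPM after ethanol and 106, 114, 99.9 and 104 CPM after saline (-0.43, SE 0.0713, adjusted p = 0.0339). Its partner chain Slc3a2 had 83.4 to 97.7 CPM after ethanol and 101 to 115 CPM after saline, without overlap, and lay just outside the threshold (-0.27, adjusted p = 0.0591). Both chains of the transporter were thus lower in all 4 ethanol mice than in any saline mouse. Groups were separated, in either direction, for 5.2% of all genes tested. Slc3a2 was chosen after its values were seen, and it did not pass without F1 either (adjusted p = 0.12). Slc7a5 did not pass without F1 (adjusted p = 0.0537) and passed in 10 of the 27 other settings.

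Klf2 (ENSMUSG00000055148, chromosome 8, first listed exon 73072877 to 73072993, forward strand), a transcription factor that blood flow induces in endothelium, was at 8.79, 7.85, 6.15 and 5.86 CPM after ethanol and 12.3, 10.6, 12.9 and 13.6 CPM after saline. The log2 fold change was -0.81 (SE 0.131, adjusted p = 0.0338). The males were lower than the females after ethanol. Without F1 and F3, which leaves only those males in the ethanol group, the value was -0.98 (adjusted p = 0.0288). Rasl11a (ENSMUSG00000029641, chromosome 5, first listed exon 146781881 to 146782150, forward strand), a small GTPase of the Ras family, was at 2.38 to 3.71 CPM after ethanol and 5.25 to 6.17 CPM after saline (-0.97, SE 0.154, adjusted p = 0.0338). Coq10b, which binds coenzyme Q in mitochondria and was outside the naming rule, was at 13.7 to 16.6 and 19.4 to 23.9 CPM (-0.51, adjusted p = 0.0371). Neither Rasl11a nor Coq10b passed without F1 (adjusted p = 0.0587 and 0.0752).

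The genes that rose were led by Kank1 (ENSMUSG00000032702, chromosome 19, first listed exon 25214339 to 25214681, forward strand), which encodes an ankyrin-repeat protein that regulates actin at the cell edge. It was at 34.2, 33, 33.4 and 32.4 CPM in the ethanol libraries and at 24.7, 25, 24.9 and 22.4 CPM in the saline ones. The spread within each group was small beside the difference, including in F1 and F3. The log2 fold change was 0.45 (SE 0.0515, adjusted p = 0.00318), and it passed in 25 of the 27 other settings.

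Cldn5 (ENSMUSG00000041378, chromosome 16, first listed exon 18595597 to 18597012, forward strand), the tight junction protein that seals brain endothelium, was at 49.8, 35.4, 44.5 and 42.8 CPM after ethanol and 28, 24.3, 28.1 and 28 CPM after saline. F3 was the lowest ethanol library and F1 the highest. The log2 fold change was 0.67 (SE 0.1, adjusted p = 0.0247), and 0.66 without both (adjusted p = 0.0266). It lost the call without ethanol M1 or M3 or without any 1 of the 4 saline libraries (adjusted p = 0.0512 to 0.128). It was the only one of 17 endothelial genes to pass with all libraries, and without F3 Eng, Itm2a and Egfl7 passed as well, 4 of 17, where 1.23% of all genes rose. The list's median log2 fold change was 0.18, 14 of its genes had a positive estimate, and its summed level was 452.4 to 625.6 CPM after ethanol and 481.8 to 513 CPM after saline. In bulk tissue, more cells of a type and more RNA per cell cannot be told apart. Kdr, the main receptor for VEGF on these cells, had 16.4 to 23.8 CPM after ethanol and 13.8 to 17 CPM after saline (0.45, adjusted p = 0.334), and Pecam1 19.4 to 24.1 and 17.3 to 19.8 CPM (0.21, adjusted p = 0.359). F3 was the ethanol library inside the saline range of Kdr, and F3 and M1 were those inside it for Pecam1.

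Zfp36l2 (ENSMUSG00000045817, chromosome 17, first listed exon 84491359 to 84494584, reverse strand), which binds AU-rich mRNAs and promotes their decay, was at 32.8, 22.8, 31.9 and 38.1 CPM after ethanol and 21.3, 17.4, 19.4 and 17.1 CPM after saline (0.73, SE 0.121, adjusted p = 0.0339). F3 was close to the saline range, and the value without F3 was 0.83 (adjusted p = 0.00295). Without F1 it was 0.66 and did not pass (adjusted p = 0.0834). Mmp14 (ENSMUSG00000000957, chromosome 14, first listed exon 54669069 to 54669430, forward strand), a membrane-bound protease of the extracellular matrix, was at 20.8, 23.5, 29.7 and 23.6 CPM after ethanol and 16.4, 16.9, 17.9 and 16.1 CPM after saline (0.53, SE 0.0902, adjusted p = 0.0371). It passed without F1 and without F3, and in 8 of the 27 other settings in all, the fewest of the 20 genes.

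Xlr4b (ENSMUSG00000067768, chromosome X, first listed exon 72257939 to 72258087, forward strand) had the largest fold change and the lowest level of the called genes, and its mean was too low for the naming rule. It belongs to a cluster of near-identical genes on the X chromosome, some of them imprinted in mouse brain. Its raw counts were 14, 45, 42 and 101 in the ethanol libraries F1, F3, M1 and M3 and 4, 8, 1 and 2 in the saline ones. The KO saline libraries were the low group, since the 8 WT vermis libraries held 18 to 54 counts at either exposure. Its neighbours Xlr4a (25 to 109 counts after ethanol, 5 to 18 after saline) and Xlr4c (14 to 40 and 0 to 5) were also separated in KO, and Xlr3b was not (341 to 1239 and 28 to 979). Reads that match several copies can be counted for each or lost, so these genes are not independent and their values are uncertain. The fitted log2 fold change of Xlr4b was 4.14 (SE 0.671, adjusted p = 0.0338).

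Several genes lay just outside the threshold with groups that did not overlap, and they were chosen after their values were seen. Slc2a13, the proton-coupled myo-inositol transporter, was at 98, 113, 102 and 105 CPM after ethanol and 49.2, 55.2, 64.2 and 57 CPM after saline. The ethanol libraries were all far above the saline ones (0.89, SE 0.154, adjusted p = 0.0534), and it passed without F3 (adjusted p = 0.0335) but not without F1 (0.124) or without both (0.257). In WT vermis Slc2a13 averaged 112 CPM after saline and 101 CPM after ethanol. The KO ethanol mean of 105 CPM was at that level, and KO saline, at 56.4 CPM, was the low group. The interaction was not called for Slc2a13 (1.03, adjusted p = 0.111). Bdnf, a neurotrophin that granule neurons make, was at 20.6, 17.9, 17.4 and 21 CPM after ethanol and 29.7, 27.3, 24.6 and 29.3 CPM after saline (-0.53, SE 0.0971, adjusted p = 0.0615). Notch1, the receptor of the Notch pathway, was at 38.2, 37.6, 38 and 37.7 CPM and 31.1, 31.6, 31.6 and 27.6 CPM (0.31, adjusted p = 0.0879). Fzd4, a receptor of Wnt proteins and norrin, was at 14.1, 12.2, 12.9 and 15.7 CPM and 18.9, 22.3, 19.2 and 19.6 CPM (-0.54, adjusted p = 0.0591).

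The number of calls depended on single libraries. Without ethanol F3 616 genes of 22958 passed (2.68%), 282 higher and 334 lower, and these included all 20. Without ethanol F1 15 of 22926 passed (0.0654%; 6 higher, 0.0262%, and 9 lower, 0.0393%), of which 12 were among the 20, and without both libraries 24 of 23545 (0.102%), of which 9 were. The 9 were Dbp, Kank1, Ciart, Nr1d1, Cldn5, Klf2, Xlr4b, Zfp36l2 and Slc7a5. Leaving out ethanol M3 or saline M3 left 2 calls each, Dbp and Kank1 in both cases, saline F3 5, ethanol M1 8, saline M1 9 and saline F1 10. Leaving out a WT library gave 13 to 25 calls. With only the 8 KO libraries in the fit, Dbp alone passed, and the other 19 genes lost the call. In none of the 27 settings run did any of the 20 genes change direction. The groups of all 20 did not overlap, so leaving out libraries could hardly reverse a direction, and this is no support.

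**Figure D4:**
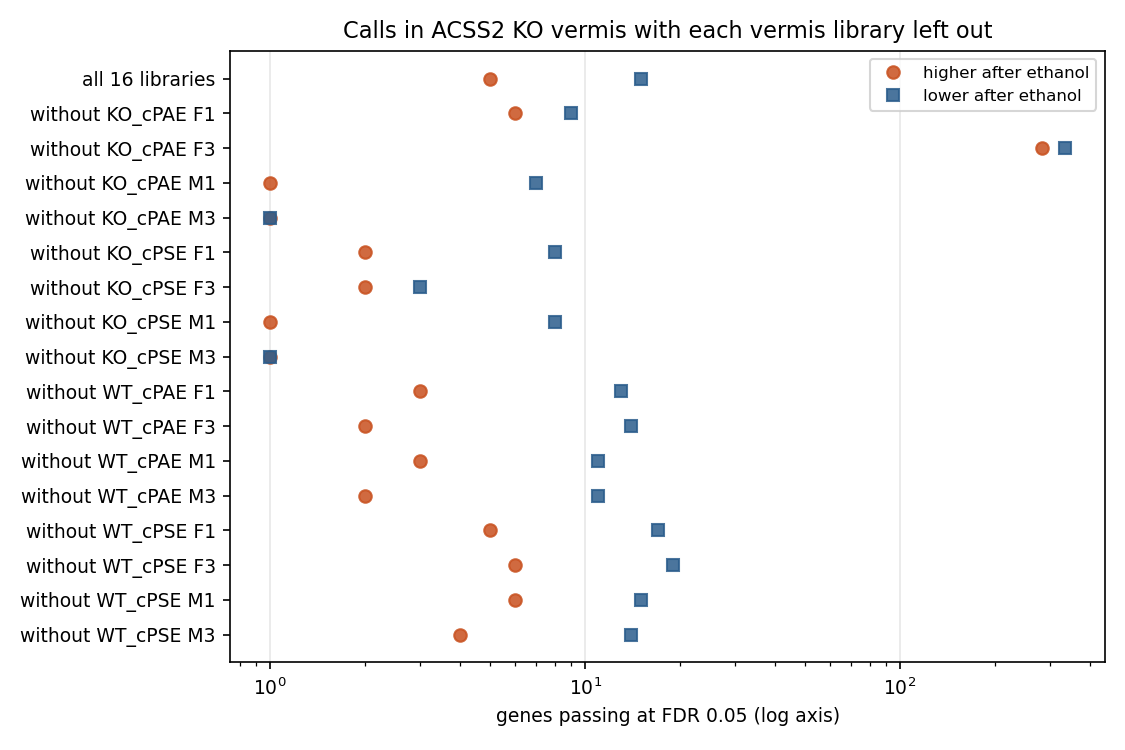
Number of genes that passed at a false discovery rate of 0.05 in ACSS2 KO vermis with all 16 vermis libraries in the fit (top row) and with each library left out in turn, on a log axis; orange circles count genes higher after ethanol and blue squares genes lower. Without ethanol F3 the counts are 282 and 334, against 5 and 15 with all libraries, and without ethanol M3 or saline M3 they are 1 and 1.

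Some of the genes added without F3 are given here with their values in every library, chosen after these were seen. Tob2, an antiproliferative protein that binds the mRNA deadenylase complex, was at 37.4, 88.2, 43.7 and 47.4 CPM in ethanol F1, F3, M1 and M3 and at 98.7, 84.6, 91.7 and 93.3 CPM after saline. F3 thus sat inside the saline range, and the log2 fold change went from -0.79 (adjusted p = 0.225) to -1.10 without F3 (adjusted p = 0.00115). Chaperones of the endoplasmic reticulum were among the genes added on the higher side. Of 31 tested genes for heat shock or the unfolded protein response, 0 passed with all libraries (26 positive estimates, median 0.16), and 6 rose without F3, where 1.23% of all genes did. Pdia6, a protein disulfide isomerase, was at 78.5, 61.9, 94.8 and 100 CPM after ethanol and 57.7, 63, 56.9 and 66.2 CPM after saline (0.57 without F3, adjusted p = 0.0244). Hyou1, a chaperone of the same compartment, was at 106, 94, 112 and 125 and 89.4, 89.6, 85.4 and 91.4 CPM, where F3 was still above all saline libraries (0.37 without F3, adjusted p = 0.0297). Calr, Pdia3, Hsp90b1 and Pdia4 were the other 4. Without F1 alone, 0 of the 31 genes passed. Without both F1 and F3, with only the males left in the ethanol group, the list had 7 higher genes, where 0.051% of all genes rose.

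On the lower side, 6 of 44 genes of histone lysine methylation and 6 of 36 splicing genes fell without F3, where 1.45% of all genes did, and 0 of either list passed with all libraries. Without F3 the ethanol group is F1, M1 and M3, the libraries that stood apart at the start, M1 and M3 in part. The medians of these lists with all libraries were -0.14 and -0.13, and without F1 they were -0.056 and -0.057. Rbm3, an RNA-binding protein that cold induces, was at 77.4, 118, 87.1 and 62.7 CPM after ethanol and 139.6, 116, 127 and 131 CPM after saline. F3 again lay inside the saline range (-0.58, adjusted p = 0.255; -0.78 and adjusted p = 0.0244 without F3). Kdm6b, an H3K27 demethylase, was at 46.2, 82.7, 62.1 and 59.6 CPM and 76.8, 66, 72.9 and 73 CPM (-0.21, adjusted p = 0.46), with F3 the highest of all 8 libraries. Without both F1 and F3 no gene of these 2 lists passed.

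Immediate early genes, which neuronal activity induces within minutes, held no call. Of 30 tested, 11 had a positive estimate and the median was -0.11. Nr4a3, an orphan nuclear receptor, was at 8.56, 27.6, 14.3 and 8.29 CPM after ethanol and 49.5, 30.4, 32.3 and 51.6 CPM after saline, and Nr4a2 at 10.2, 24.9, 14.1 and 9.26 CPM and 57.1, 25.7, 27.4 and 42.2 CPM. In both the 2 groups did not overlap, F3 was the highest ethanol library and the saline libraries were spread widely (-1.56 and -1.41, adjusted p = 0.227 and 0.221). Without F3, Nr4a1, Nr4a2, Nr4a3 and Bdnf fell, 4 of 30, where 1.45% of all genes fell.

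Lists tied to ethanol and acetate held no call with all libraries. Of 26 genes of acetyl-CoA and acetate metabolism, 0 passed, with a median of 0.11. Acss3, the mitochondrial relative of ACSS2 for propionate, was at 3.72, 1.13, 2.29 and 3.22 CPM after ethanol and 1.38, 1.3, 1.87 and 1.67 CPM after saline (0.76, adjusted p = 0.327), with F3 below all saline libraries and the other 3 above them. Without F3, Acss3 (0.97, adjusted p = 0.0305) and Aspa, which frees acetate from N-acetylaspartate (0.89, adjusted p = 0.0312), rose, 2 of 26, where 1.23% of all genes did. Aspa is also on the oligodendrocyte and myelin list. That list summed to 15260 CPM in ethanol F1, 5381 in F3, 5441 in M1 and 6738 in M3. The saline libraries had 4853 to 5625 CPM. The part of that level in the rise of Aspa was not tested. Of 12 ethanol and aldehyde oxidation genes, 0 passed (median 0.085). Aldh2, which clears acetaldehyde, was at 69 to 96 and 68.4 to 74.8 CPM (0.17, adjusted p = 0.38). Of 39 histone acetylation writers, erasers and readers, 0 passed (median -0.025). Hdac4, a class IIa deacetylase, had 46.3 to 54.5 and 37.6 to 52 CPM (0.24, adjusted p = 0.237). Nor did any of 79 cytosolic ribosomal protein genes (median 0.045) or 78 nuclear-encoded respiratory chain genes (median -0.0099) pass with all libraries. Without F3, 2 of the ribosomal protein genes rose, where 1.23% of all genes did.

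The cell type lists followed the order of the libraries described at the start. All 22 oligodendrocyte and myelin genes had positive estimates, with a median of 0.57 that was 0.15 without F1, and 0 passed. Ermn, a myelin cytoskeleton protein, was at 136, 45.2, 48.4 and 63.1 CPM after ethanol and 45, 38.3, 40 and 41.1 CPM after saline (0.79, adjusted p = 0.33). The high value was that of F1, and F3 and M1 lay near the saline range. The 19 microglial genes had a median of 0.45 (0.17 without F1), and the 36 brainstem genes one of 2.13 (1.20 without F1). On the other side, all 19 Purkinje genes had negative estimates, with a median of -0.35 that was -0.11 without F1, and 17 of 20 granule neuron genes were negative (median -0.32, and -0.097 without F1). Slc17a7, the vesicular glutamate transporter of granule neurons, was at 287, 640.3, 516 and 316 CPM after ethanol and 582, 596, 497 and 647 CPM after saline (-0.40, adjusted p = 0.383), low in F1 and M3 and within the saline range in F3 and M1. None of these 5 lists had a gene that passed with all libraries. Without F3, 4 oligodendrocyte genes (Ermn, Cryab, Gal3st1 and Aspa) and 3 microglial genes (Siglech, Cx3cr1 and Trem2) rose, where 1.23% of all genes did, and 1 granule neuron gene, Slc17a7, fell, where 1.45% did. With the level of the brainstem list as a covariate, 9 genes passed, 8 of them among the 20: Dbp, Kank1, Ciart, Frmd6, Nr1d1, Cldn5, Klf2 and Xlr4b. Dbp was at -0.88 in that fit (adjusted p = 4.7e-05), and Per1 did not pass (-1.02, adjusted p = 0.0648). The part of the other marker levels in the called genes was not tested.

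In WT vermis the same exposure gave 1 call of 22441 (0.00446%), with 1194 genes at an unadjusted p under 0.05. The gene was Mt2, which rose there: its mean was 77.8 CPM after saline and 124 CPM after ethanol (0.67, SE 0.0862, adjusted p = 0.0312). In KO it fell by 0.55 on the log2 scale. Whether the exposure difference was not the same in KO and WT was tested as an interaction in the same fit, and 24 genes passed (0.107%), 3 with a more positive difference in KO (0.0134%) and 21 with a more negative one (0.0936%). The interaction shares its 8 KO libraries with the comparison above and is no independent support for it. The brainstem list was uneven in the WT vermis libraries too. It averaged 2.02 log2 CPM in WT ethanol F1, 2.00 in WT ethanol M3 and 1.60 in WT saline F1. The other WT libraries had -1.95 to 0.52. Hoxb5 was at 8.36 and 6.08 CPM in WT ethanol F1 and M3, against 4.84 CPM in KO ethanol F1. With the level of the list as a covariate, 44 genes passed the interaction.

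Among the called genes the exposure difference differed between genotypes for Dbp, whose log2 fold change was 0.0078 in WT (interaction -0.90, adjusted p = 0.000681). Frmd6 had a positive value in WT that did not pass there (0.60, adjusted p = 0.399; interaction -1.37, adjusted p = 0.00191), as had Map3k6 (0.68, adjusted p = 0.905; interaction -2.001, adjusted p = 0.0164). Frmd6 averaged 27.5 CPM in WT saline, 41.8 CPM in WT ethanol, 39.9 CPM in KO saline and 23.4 CPM in KO ethanol. The KO ethanol level of Frmd6 was thus nearer to the WT saline level than the KO saline level was. For Dbp the 4 means, in the same order, were 106, 107, 91.9 and 49.5 CPM, so that KO ethanol was the group that stood apart. For Per1 they were 85, 107, 113 and 54.4 CPM (interaction -1.40, adjusted p = 0.0275). The interaction was not called for Nr1d1 (-0.69, adjusted p = 0.076), Cldn5 (0.77, adjusted p = 0.0555), Zfp36l2 (0.88, adjusted p = 0.0617) or Ddit4 (-0.39, adjusted p = 0.228).

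Some genes passed the interaction without passing in KO or in WT alone. Dusp6 and Spred2, feedback inhibitors of the ERK pathway, had log2 fold changes of -0.41 and -0.49 in KO and 0.59 and 0.69 in WT (interaction -1.004 and -1.18, adjusted p = 0.0275 and 0.0288). Bdnf differed as well (-0.53 in KO, 0.34 in WT, adjusted p = 0.0275), as did the glucocorticoid-responsive Tsc22d3 (-0.30 and 0.38, adjusted p = 0.0326) and Klf15 (-0.45 and 0.28, adjusted p = 0.0288). Mt1, the neighbour of Mt2, was a further one (-0.22 in KO, 0.39 in WT, interaction -0.61, adjusted p = 0.0384). Adamts1, a matrix protease, had a positive value in KO and a negative one in WT (0.57 and -0.44, adjusted p = 0.0288).

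The same 8 KO mice also gave a dorsal hippocampus library each, in which ethanol against saline called 12 of 23394 genes (0.0513%), 5 higher (0.0214%) and 7 lower (0.0299%). The WT hippocampal libraries shared that fit, as the WT vermis libraries did in the vermis. Of the 20 vermis genes, Dbp (-0.63, adjusted p = 0.0481) and Nfkbia (-0.57, adjusted p = 0.00959) passed there too. Values that did not pass in hippocampus were -0.76 for Ciart (adjusted p = 0.0672), -0.78 for Sgk1 (0.0672), -0.59 for Per1 (0.0666), 0.26 for Kank1 (0.474) and 0.054 for Frmd6 (0.904). A test of the difference between regions, with the mouse as a block, called 0 of 23267 genes (edgeR), with 1159 at an unadjusted p under 0.05, and DESeq2 called 4. For Dbp the difference of vermis minus hippocampus was -0.26 (adjusted p = 0.842), and for Frmd6 it was -0.85 (adjusted p = 0.842). A p of this size does not show that the regions respond alike.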

How the data were processed

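PolyA RNA-seq counts of the 16 vermis libraries were analysed, with the 8 hippocampal libraries of the KO mice for the region test. The comparison within KO hippocampus was fitted on all 16 hippocampal libraries, WT included. Raw counts for 56415 genes were taken from the deposited gene table as the authors made it. GRCm39 was the build, and the tools were cutadapt 5.0, STAR 2.7.10a and featureCounts 2.0.6, with bcl2fastq and DESeq2, as listed in the submitters' processing notes. The strand setting and annotation release are not given in the sources used here, so reads of antisense or overlapping genes cannot be separated. The other tables were not used here.

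Counts were fitted in R 4.3.3 with edgeR 4.0.16 (filterByExpr by group, TMM, robust quasi-likelihood F-test, group and sex as terms, all 16 vermis libraries) and Benjamini-Hochberg adjustment at 0.05 over all genes tested. The region test used the 16 KO libraries with mouse as a block, and the hippocampal fit used group and sex as terms. Alternatives used limma 3.58.1 and DESeq2 1.42.0; figures used Python 3.11.15 and matplotlib 3.10.9. No library was a copy of another in its group: over the 12 pairs, chi-square divided by its degrees of freedom was 9.05 or more. The fit was tested on simulated data.

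Named genes were up to 12 per direction with the smallest p among called genes of at least 1 CPM with no predicted name, the same for genes called also without ethanol F1 and without F3, Acss2, and for each list described up to 4 members. Clock, glucocorticoid, Xlr, near-threshold and interaction genes beyond these were chosen after their values were seen. The members and the 50 gene lists, 17 of them marker lists, were chosen with earlier results of these data known. Lists are described by counts and medians without a set test. Promoter windows are those of RefSeq (GRCm38.p6), matched by symbol.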

Additional observations from a re-analysis of the deposited data

Results flagged for a closer look

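In the 4 saline KO vermis libraries, 1 library lay far from the other 3 in several measures, by Dixon's criterion for 4 values, which chance meets in about 1 in 20 groups. It was not the same library in each measure. With many measures looked at, several such cases can arise by chance. Saline F3 was high in the molecular layer interneuron and Golgi cell list (5.91 log2 CPM, against 5.71 to 5.73), high in the choroid plexus list (1.08, against -0.54 to -0.31) and low in the oligodendrocyte list (5.97, against 6.11 to 6.12). Saline F1 was low in the microglia list (2.45, against 2.58 to 2.60). Cldn5 was low in saline F3 (24.3 CPM, against 27.98 to 28.1), and Kank1 was low in saline M3 (22.4 CPM, against 24.7 to 25.0). Without saline F3, Cldn5 lost its call (log2 fold change 0.63, adjusted p = 0.0922), and without saline M3 Kank1 kept it (0.42, adjusted p = 0.0276).

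The exposure difference was not the same in KO and WT vermis for 24 genes by the interaction test of edgeR. The difference of the log2 fold changes, KO minus WT, was -0.90 for Dbp, -1.40 for Per1 and -0.83 for Ciart among the clock genes. Among the glucocorticoid-responsive genes it was -2.001 for Map3k6, -1.22 for Sgk1, -1.21 for Mt2 and -0.70 for Nfkbia. For the remaining lower genes it was -1.37 for Frmd6, -1.25 for Rasl11a, -1.18 for Klf2 and -0.57 for Slc7a5. Of the higher genes, Kank1 had 0.55 and Mmp14 0.81. Mt2 was the gene that passed in both genotypes, in opposite directions.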

How the results depend on the processing

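The 20 called genes were followed through 27 other settings, 540 gene values in all: 323 kept the call and 217 did not pass. Every value kept its direction, which the lack of overlap between the groups made all but certain. The count of 20 (5 higher, 15 lower) was 52 (19, 33) without the low-count filter, 205 (88, 117) with DESeq2, 31 for protein-coding genes only (24 lower), 9 (3, 6) with the brainstem level as a covariate, 1 (0, 1) with only the 8 KO libraries and 1 (0, 1) in males only. Without ethanol F1 and F3, 12 genes were higher. With 1 library left out at a time it ran from 2 to 616, higher genes from 1 to 282 and lower genes from 1 to 334. The F and M labels of the 2 groups belong to different mice, and same-labelled libraries did not deviate together (correlations from -0.29 to 0.053, with 0 of 4 ethanol libraries closest to their own label). A replicate block on that label gave 7 calls (3, 4), 6 of them among the 20, and 6 for the interaction.

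The interaction count of 24 was 53 without the filter, 41 without the sex term, 41 without ethanol F1 and F3, 44 with the brainstem covariate, 73 with limma-voom sample weights, 247 with DESeq2, 0 in males only and 3 to 168 with 1 library left out. The region test, 0 with edgeR, gave 4 with DESeq2 and 0 with any mouse left out. List medians, compared for 25 lists, changed sign for 4 without ethanol F1, for 1 without F3, for 2 without both and for 0 under RLE scaling. The cause of these shifts was not tested. Counting error is largest in ethanol F3, where 1 CPM is about 23.1 counts.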
